A study of Mus musculus with 6 samples.

Results

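Notch signalling in the mouse hepatocyte line AML12 was examined through 10 genes, taken by symbol from the 25416 genes of the deposited table: the receptor genes Notch1, Notch2, Notch3 and Notch4, the ligand genes Jag1, Jag2, Dll1 and Dll4, and the target genes Hes1 and Hey1. All 10 were found. AML12 cells come from hepatocytes of a mouse that carried a transgene for human TGF alpha, so that cells of both groups share this background, and they were grown with insulin, transferrin and selenium. One group received scrambled RNA (siNC, n = 3) and the other an siRNA against Setdb1 (siSetdb1, n = 3), labelled as 50 nm, and polyadenylated RNA was sequenced after 72 h. Setdb1 encodes a histone methyltransferase that places repressive marks on histone H3, and the design asks which transcripts differ when it is depleted. All 6 libraries are of a single line, and whether the replicates are separate cultures is not given, so p-values reflect the spread among these 6 samples alone, and that spread may be technical.

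Notch receptors are transmembrane proteins that bind Jagged or Delta-like ligands on neighbouring cells. Ligand binding opens the receptor to cleavage by ADAM proteases and then by gamma-secretase, and the freed intracellular domain enters the nucleus, where it joins the DNA-binding protein RBPJ and Mastermind coactivators to switch on genes of the HES and HEY repressor families. In the liver, JAG1 acting on NOTCH2 is known for directing progenitor cells to form bile ducts.

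The libraries held 16790582 to 17835060 reads, totals that were inferred from the deposited values and exon lengths, as were the reads given for single genes. Setdb1 itself had 8.41 to 9.43 FPKM in siNC and 3.29 to 4.29 FPKM in siSetdb1 (FPKM, fragments per kilobase of exon scaled to library size). Its mean fell by 55.3%, to 3.93 ± 0.56 FPKM from 8.80 ± 0.55 FPKM (mean ± SD, n = 3, as for all means here; adjusted p = 0.00183, limma with Benjamini-Hochberg adjustment). siNC replicate 1 stood apart from the other siNC libraries on both leading principal components, and values without it are given where they change a result. Hepatocyte markers were uneven: the keratin genes Krt8 and Krt18 had 1267 ± 118 and 1633 ± 100 FPKM in siNC and the liver transcription factor gene Hnf4a 34.7 ± 4.1 FPKM, whereas the albumin gene Alb had 7.93 ± 5.54 FPKM and the hepatocyte receptor gene Asgr1 was at most 0.0705 FPKM in any library. The bile duct keratin genes Krt19 and Krt7 had 1300 ± 127 and 154 ± 13 FPKM in siNC. Some markers listed for hepatocytes were thus high and others low, and Krt19 was about as high as Krt8.

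The DNA just before 4 of the genes is shown because these genes span the findings described below: Notch4, the receptor gene that rose, Notch2, the most abundant receptor gene, Jag1, the most abundant ligand gene, and Dll4, a ligand gene with almost no reads. Each is the part of the RefSeq window of 250 bases before the start site (build GRCm38.p6) that lies outside the gene as the deposited table bounds it, written 5′ to 3′ on the gene's strand. Capitals mark the GC box (GGGCGG on either strand), a motif bound by SP and KLF factors. The Notch4 stretch lies at chr17:34564045-34564267 (plus strand), that of Notch2 at chr3:98013288-98013526 (plus strand), that of Jag1 at chr2:137116645-137116770 (minus strand) and that of Dll4 at chr2:119325534-119325783 (plus strand).
Notch4: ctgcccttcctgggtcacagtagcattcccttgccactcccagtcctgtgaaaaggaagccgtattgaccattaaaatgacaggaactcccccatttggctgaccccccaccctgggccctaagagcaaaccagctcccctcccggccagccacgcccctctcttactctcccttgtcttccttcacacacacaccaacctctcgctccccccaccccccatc
Notch2: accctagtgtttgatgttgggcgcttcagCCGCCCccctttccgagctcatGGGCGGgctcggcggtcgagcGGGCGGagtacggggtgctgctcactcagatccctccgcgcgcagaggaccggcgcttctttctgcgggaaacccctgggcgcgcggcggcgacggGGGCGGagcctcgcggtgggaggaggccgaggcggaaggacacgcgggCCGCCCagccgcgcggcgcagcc
Jag1: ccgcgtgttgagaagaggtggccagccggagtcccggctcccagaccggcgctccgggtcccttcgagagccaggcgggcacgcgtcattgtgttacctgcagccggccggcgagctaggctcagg
Dll4: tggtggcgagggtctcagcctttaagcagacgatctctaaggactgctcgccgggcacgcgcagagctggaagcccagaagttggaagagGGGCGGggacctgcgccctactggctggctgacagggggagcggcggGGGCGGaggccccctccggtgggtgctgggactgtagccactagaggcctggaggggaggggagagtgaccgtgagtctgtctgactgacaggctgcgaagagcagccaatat

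GC boxes stood in the stretches of Notch2 (5 matches) and Dll4 (2 matches, with overlapping matches each counted) and in neither of those of Notch4 and Jag1. Windows of 250 bases were on hand for 8 of the 10 genes. None was on hand for the target genes Hes1 and Hey1, so the motifs were not looked for there. A GC box was in 5 of the 9 windows of these 8 genes (Dll1 has 2 windows), against 32.7% of all 32851 RefSeq windows of that length. The core letters that RBPJ binds, TGGGAA on either strand, were in 0 of the 9 windows, against 21.6% of all windows. The E-box CACGTG was also in 0 of the 9, against 6.02% of all. Matches of these motifs can share letters where they adjoin, but GC boxes were the only matches found here. The Jag2 and Notch1 windows lie inside the genes as the table bounds them and are not shown. The Jag2 window was 87.2% G or C, above 99.96% of all windows, and the Notch4 window was 58.4% G or C, with a median of 52.4% over all windows.

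Of the receptor genes, Notch4 was higher in the knockdown and the more abundant Notch1 and Notch2 did not pass the test. The 4 genes encode receptors with the same overall plan, of which Notch4 is best known from endothelial cells and Notch3 from vascular smooth muscle. The Notch4 gene (ENSMUSG00000015468, chromosome 17, 34564268 to 34588503 of mm10, plus strand) had 3.18, 2.75 and 2.71 FPKM in siNC and 3.94, 3.88 and 4.0 FPKM in siSetdb1. Each knockdown library was above each control, and the 3 knockdown values lay closer together than the controls. The mean rose by 36.9%, to 3.94 ± 0.06 FPKM from 2.88 ± 0.26 FPKM. The log2 fold change, here and below a difference on the log2(FPKM + 1) scale that understates the change of low genes, was 0.35 ± 0.08 (SE, limma adjusted p = 0.0268), and 375 to 575 reads stood behind each value. The call was lost on leaving out any 1 library other than siNC replicate 1. The adjusted p was then 0.0796 (siNC replicate 2 left out), 0.0693 (siNC replicate 3), 0.10 (siSetdb1 replicate 1), 0.0862 (siSetdb1 replicate 2) and 0.0832 (siSetdb1 replicate 3), while the log2 fold change stayed between 0.32 and 0.41. Testing all genes without a filter gave 0.0662.

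Notch2 (ENSMUSG00000027878, chromosome 3, 98013527 to 98150361, plus strand) was the most abundant receptor gene, with 19.2, 16.8 and 18.2 FPKM in siNC and 17.6, 15.8 and 17.1 FPKM in siSetdb1. The groups overlapped, and the log2 fold change was -0.10 (95% interval -0.28 to 0.08, adjusted p = 0.431, limma). Notch1 (ENSMUSG00000026923, chromosome 2, 26457903 to 26516663, minus strand) had 7.85, 6.68 and 6.54 FPKM in siNC and 6.72, 6.14 and 7.29 FPKM in siSetdb1. Its groups overlapped too, with siNC replicate 1 the highest of the 6 libraries, and the log2 fold change was -0.06 (95% interval -0.27 to 0.16, adjusted p = 0.717, limma). The upper ends of both intervals lay below the 0.35 measured for Notch4, and the difference between the receptor genes was not tested. Antisense transcripts share 7.5% and 2.91% of the exon bases of Notch1, and no strand-marking step is named in the protocol, but these transcripts had at most 0.363 FPKM in any library.

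Notch3 (ENSMUSG00000038146, chromosome 17, 32120820 to 32166852, minus strand) was barely detected. The siNC libraries held 7, 14 and 9 reads and the siSetdb1 libraries 12, 12 and 11. These counts correspond to 0.0515 to 0.0995 FPKM, below the level of 0.5 FPKM in 3 libraries that a gene needed to be tested, and the groups overlapped. The order of the receptor genes by level was the same in both groups, Notch2 above Notch1 above Notch4 above Notch3, with no overlap between neighbours over the libraries of a group.

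**Figure D1:**
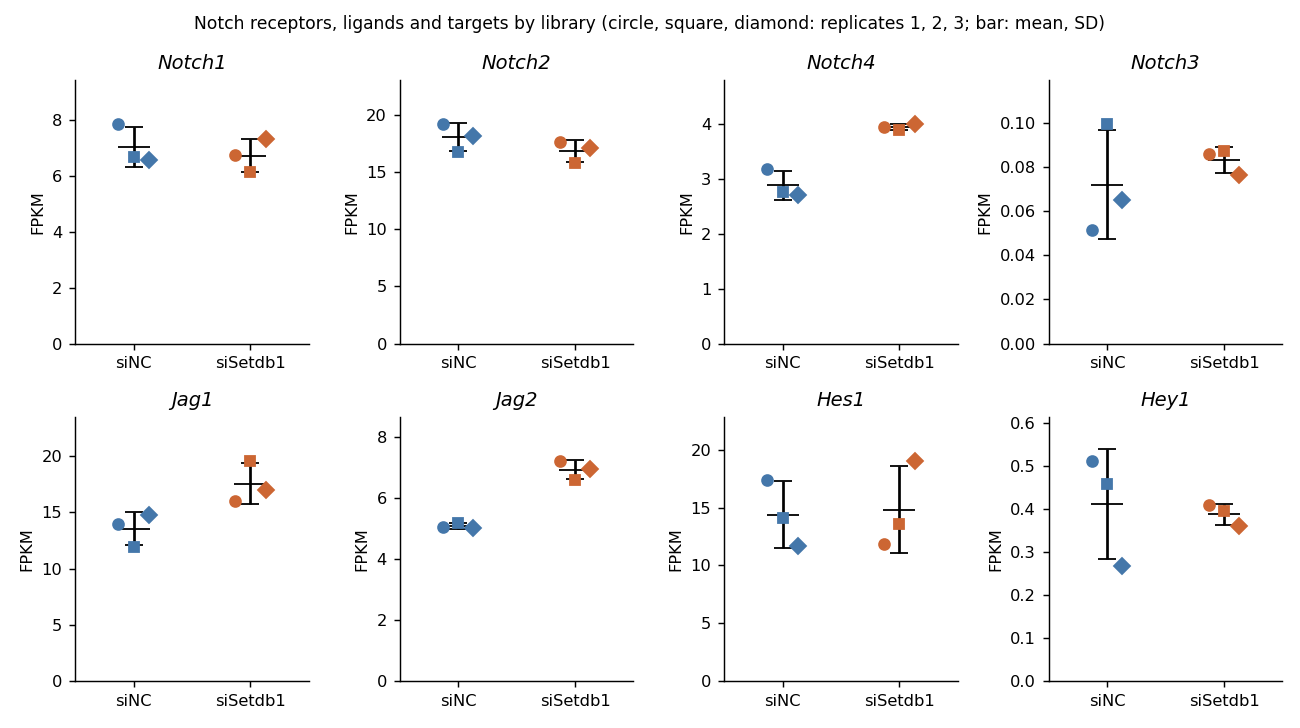
FPKM of 8 of the 10 genes in each library (y axes from 0, each panel with its own scale), with siNC in blue, siSetdb1 in orange and the mean and SD in black. The siSetdb1 libraries lie above all siNC libraries for Notch4, Jag1 and Jag2, and the groups overlap for Notch1, Notch2, Notch3, Hes1 and Hey1.

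Notch4 also made up more of the receptor transcript in each knockdown library, as a description of the same values. The summed receptor level was 26.3 to 30.3 FPKM in siNC and 25.9 to 28.4 FPKM in siSetdb1, and the groups overlapped. Notch4 made up 9.86% to 10.5% of this sum in siNC and 13.9% to 15.0% in siSetdb1. Notch2 made up 63.4% to 66.1% and 60.0% to 62.1%, and Notch1 23.8% to 25.9% and 23.7% to 25.6%. The shares of Notch4 and Notch2 did not overlap between the groups and those of Notch1 did.

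Among the ligand genes, the Jagged genes were expressed and the Delta-like genes were nearly silent. Jag2 (ENSMUSG00000002799, chromosome 12, 112907819 to 112929776, minus strand), which encodes a Jagged ligand known from limb, thymus and epithelia, had 5.05, 5.19 and 5.01 FPKM in siNC and 7.21, 6.58 and 6.96 FPKM in siSetdb1. The controls lay close together and all knockdown libraries lay above them. The mean rose by 36.0%, to 6.92 ± 0.31 FPKM from 5.09 ± 0.09 FPKM. The log2 fold change was 0.38 ± 0.07 (SE, limma adjusted p = 0.0124), from 591 to 867 reads per library. Without siSetdb1 replicate 1 the adjusted p was 0.0653, and without any other library it was at most 0.0469.

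Jag1 (ENSMUSG00000027276, chromosome 2, 137081456 to 137116644, minus strand), the ligand mutated in Alagille syndrome, in which bile ducts are too few, had 14.0, 11.9 and 14.7 FPKM in siNC and 16.0, 19.6 and 17.0 FPKM in siSetdb1. The knockdown libraries again all lay above the controls, but the spread within each group was wider than for Jag2. The means were 13.6 ± 1.5 and 17.5 ± 1.8 FPKM and the log2 fold change was 0.35 (SE 0.10, 95% interval 0.11 to 0.59), close in size to those of Jag2 and Notch4, with an adjusted p = 0.0603 (limma). The gene therefore did not pass at 0.05, and it passed under 3 of 15 other settings: the adjusted p was 0.0458 with median-ratio scaling, 0.0405 with the variance trend fitted on reads and 0.0251 with limma-voom on recovered reads.

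Dll1 (ENSMUSG00000014773, chromosome 17, 15367354 to 15376872, minus strand) had 1 read in siNC replicate 1 and 0 reads in the other 5 libraries, and a count of 0 allows up to 3 reads. Over the 6 libraries, 3 reads of this gene correspond to 0.0399 to 0.0423 FPKM. Dll4 (ENSMUSG00000027314, chromosome 2, 119325784 to 119335962, plus strand), a ligand of sprouting endothelial cells, had at most 1 read in a siNC library and 1, 2 and 1 reads in the siSetdb1 libraries. No difference between the groups was detectable at this depth for either gene. Dll3, a further Delta-like gene, had at most 7 reads in any library.

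The summed level of the 4 ligand genes was 17.1 to 19.8 FPKM in siNC and 23.2 to 26.2 FPKM in siSetdb1, with no overlap, and Jag1 made up 69.7% to 74.6% and 68.9% to 74.7% of it. Set against the receptor sum, the ligand sum was 0.629 to 0.720 of it in siNC and 0.819 to 1.01 of it in siSetdb1. Since receptor and ligand genes are measured in the same bulk RNA, more ligand transcript per cell and more cells that express it cannot be told apart.

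**Figure D2:**
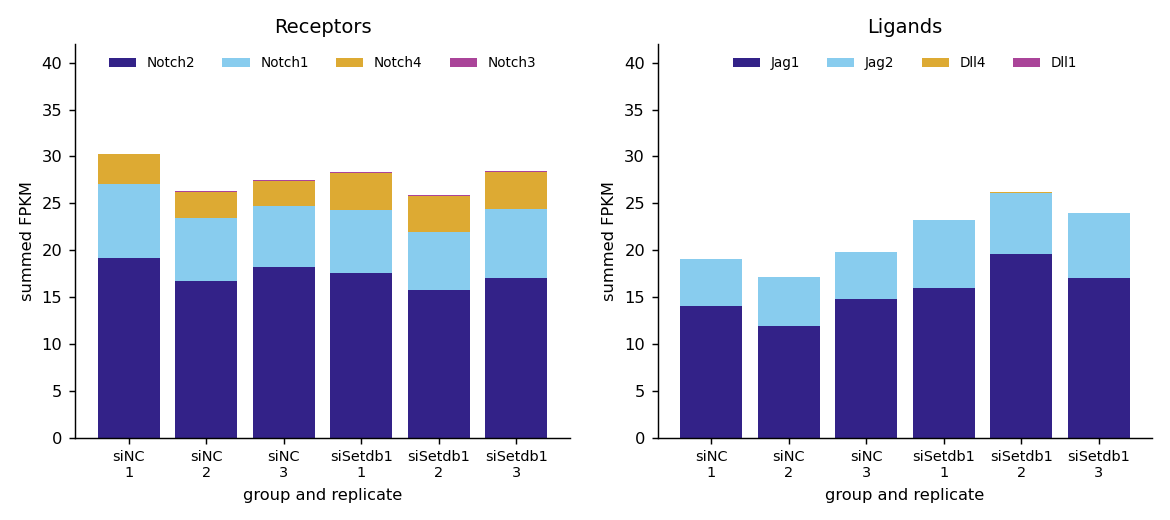
Stacked FPKM of the 4 receptor genes (left) and the 4 ligand genes (right) in each library, with group and replicate on the x axis. The receptor bars reach 25.9 to 30.3 in both groups together, and the ligand bars are taller in each siSetdb1 library (23.2 to 26.2) than in each siNC library (17.1 to 19.8).

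Of the target genes, Hes1 did not pass the test and Hey1 was too low to test. Hes1 (ENSMUSG00000022528, chromosome 16, 30064384 to 30067796, plus strand), the best known transcriptional target of the pathway, had 17.4, 14.1 and 11.7 FPKM in siNC and 11.8, 13.6 and 19.0 FPKM in siSetdb1. The highest and the second highest values were in different groups, and so were the lowest pair. The log2 fold change was 0.03 ± 0.19 (SE, limma adjusted p = 0.934), and its 95% interval of -0.42 to 0.48 takes in the changes of Notch4 and Jag2. Leaving out siNC replicate 3 or siSetdb1 replicate 3 turned its sign, to -0.10 and -0.15. Hey1 (ENSMUSG00000040289, chromosome 3, 8663359 to 8667256, minus strand), a target best known from blood vessels and heart, had 0.511, 0.458 and 0.267 FPKM in siNC and 0.408, 0.395 and 0.361 FPKM in siSetdb1, from 15 to 28 reads. It reached 0.5 FPKM in 1 library and was not tested, and its knockdown values lay within the range of the controls.

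In all, 6 of the 10 genes had enough signal to be tested (Notch1, Notch2, Notch4, Jag1, Jag2 and Hes1), of which 2 rose, none fell and 4 did not pass. Over all 12846 genes tested, 15.1% passed, 6.87% higher in siSetdb1 and 8.27% lower. The median log2 fold change of the 6 genes was 0.19, against -0.02 over all genes tested. Of the 6, 3 had groups that did not overlap, all higher in siSetdb1, and 39.2% of all genes tested had groups that did not overlap. Groups higher in siSetdb1 without overlap made up 17.6% of all genes tested and groups lower 21.6%. With so few genes, these counts describe the genes and do not set them apart from the rest.

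The other genes of the pathway were taken from a list of 72 genes by role, of which 67 were in the table and 58 were tested. Of these, 4 rose, 2 fell and 52 did not pass, so that 10.3% passed, against 15.1% of all genes tested. The median log2 fold change of the 58 was 0.03. Leaving out siNC replicate 1 gave 7 higher and 3 lower, siNC replicate 2 gave 2 and 1, siNC replicate 3 gave 2 and 2, siSetdb1 replicate 1 or 2 gave 1 and 1, and siSetdb1 replicate 3 gave 2 and 1. Testing all genes without a filter left 1 higher and 1 lower.

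The target gene Sox9, a transcription factor of the bile duct lineage, had the largest rise of the list. It had 5.34, 5.03 and 4.48 FPKM in siNC and 7.71, 9.39 and 10.7 FPKM in siSetdb1, and its log2 fold change was 0.78 ± 0.12 (SE, limma adjusted p = 0.00680). Its adjusted p was at most 0.0375 under all 15 other settings. Sox9 is also controlled by several other pathways. Hes7, which oscillates in forming somites, had 0.871 ± 0.111 and 0.707 ± 0.222 FPKM (adjusted p = 0.467, limma), and Nrarp, a feedback inhibitor of the intracellular domain, had 0.0451 to 0.208 FPKM over the 6 libraries and was not tested. Hes6, a family member that is not a canonical target, had 15.9 ± 2.0 and 14.6 ± 1.0 FPKM (adjusted p = 0.467, limma). Hes3 had at most 3 reads.

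In the nuclear complex none of 7 tested genes passed, against 15.1% of all genes tested. Rbpj, the DNA-binding partner of the receptor's intracellular domain, had 2.59, 2.97 and 3.34 FPKM in siNC and 3.72, 3.89 and 3.55 FPKM in siSetdb1. Its groups did not overlap, and the log2 fold change was 0.25 (95% interval 0.04 to 0.47, adjusted p = 0.101, limma). With limma-voom on recovered reads it was 0.36 with an adjusted p of 0.0387, and with trends in exon length and GC content removed it was at its lowest, 0.07. The coactivator genes Ep300 and Kat2b had log2 fold changes of 0.17 and 0.20 (limma adjusted p = 0.144 and 0.150), and the Mastermind genes Maml1, Maml2 and Maml3 had 0.01, -0.10 and -0.07.

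Of 14 tested corepressor genes, 2 rose and none fell, so that 14.3% passed, against 15.1% of all genes tested. The log2 fold change was above 0 in 10 of the 14 and below 0 in 4, a split that was not counted over all genes. Ctbp2, which encodes a corepressor that RBPJ complexes can recruit, rose to 17.2 ± 0.6 FPKM in siSetdb1 from 13.4 ± 0.8 FPKM in siNC (log2 0.34, limma adjusted p = 0.0216). Tle4, a Groucho corepressor gene through which HES proteins repress, rose to 13.1 ± 1.0 FPKM in siSetdb1 from 10.2 ± 0.4 FPKM in siNC (log2 0.33, limma adjusted p = 0.0276). Its relative Tle1 had 4.11 ± 0.04 and 3.32 ± 0.14 FPKM, lower in each siSetdb1 library, with a log2 fold change of -0.24 (adjusted p = 0.0548, limma). Another relative, Tle3, was under 0.5 FPKM in every library and was not tested. It too was lower in each siSetdb1 library, at 40, 16 and 62 reads against 87, 70 and 80 in siNC. Leaving out siNC replicate 3 or siSetdb1 replicate 1, 2 or 3 brought the adjusted p of Ctbp2 to 0.0501, 0.0768, 0.0889 and 0.0615. For Tle4, leaving out siNC replicate 2 or 3 or siSetdb1 replicate 1 or 2 brought it to 0.0663, 0.0716, 0.112 and 0.104.

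Receptor cleavage and modification held 2 further changes. Psenen, the smallest subunit gene of gamma-secretase, fell to 36.8 ± 0.8 FPKM in siSetdb1 from 47.9 ± 3.9 FPKM in siNC (log2 -0.37, limma adjusted p = 0.0193). The other 5 tested gamma-secretase genes did not pass, so that 16.7% of the 6 tested passed, against 15.1% of all genes tested. Leaving out siNC replicate 2 or siSetdb1 replicate 1, 2 or 3 brought the adjusted p of Psenen to 0.0525, 0.0855, 0.0693 and 0.0560. The protease genes Adam10, Adam17 and Furin did not pass, and Adam10 had 43.9 ± 6.3 and 44.1 ± 0.8 FPKM, with siNC replicate 1 the lowest library at 36.7 FPKM.

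Of 7 tested glycosyltransferase genes, 1 rose and none fell, so that 14.3% passed, against 15.1% of all genes tested. Eogt, whose enzyme adds a sugar to the EGF-like repeats of Notch, rose to 10.2 ± 0.9 FPKM in siSetdb1 from 7.53 ± 0.89 FPKM in siNC (log2 0.39, limma adjusted p = 0.0375). Leaving out siNC replicate 1 or 2 brought its adjusted p to 0.0579 and 0.103, and leaving out siSetdb1 replicate 1, 2 or 3 to 0.130, 0.130 and 0.0511. Lfng, a Fringe enzyme gene whose product shifts receptor preference between Delta-like and Jagged ligands, had 2.95, 2.2 and 3.16 FPKM in siNC and 3.40, 4.58 and 4.81 FPKM in siSetdb1. Each knockdown library was above each control, but the log2 fold change of 0.48 (95% interval 0.15 to 0.81) did not pass (adjusted p = 0.0582, limma). It passed under 4 of 15 other settings, with an adjusted p of 0.0179 to 0.0383.

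Of 17 tested genes of ubiquitin ligases and adaptors, 1 fell and none rose, so that 5.88% passed, against 15.1% of all genes tested. Neurl3, a member of the Neuralized family of E3 ligases, fell, with 2.89, 2.18 and 2.68 FPKM in siNC and 0.612, 0.856 and 0.906 FPKM in siSetdb1, the largest change of the pathway list (log2 -0.998 ± 0.11, SE, limma adjusted p = 0.00256), and its adjusted p was at most 0.0170 under all 15 other settings. Dlk2, a non-canonical ligand gene of the Delta-like family, was more abundant than any of the 4 ligand genes above, with 43.8 ± 2.3 and 39.4 ± 0.5 FPKM. It was lower in each siSetdb1 library (39.1 to 39.9 FPKM, against 42.5 to 46.4 FPKM in siNC), but did not pass (log2 fold change -0.15, adjusted p = 0.159, limma).

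**Figure D3:**
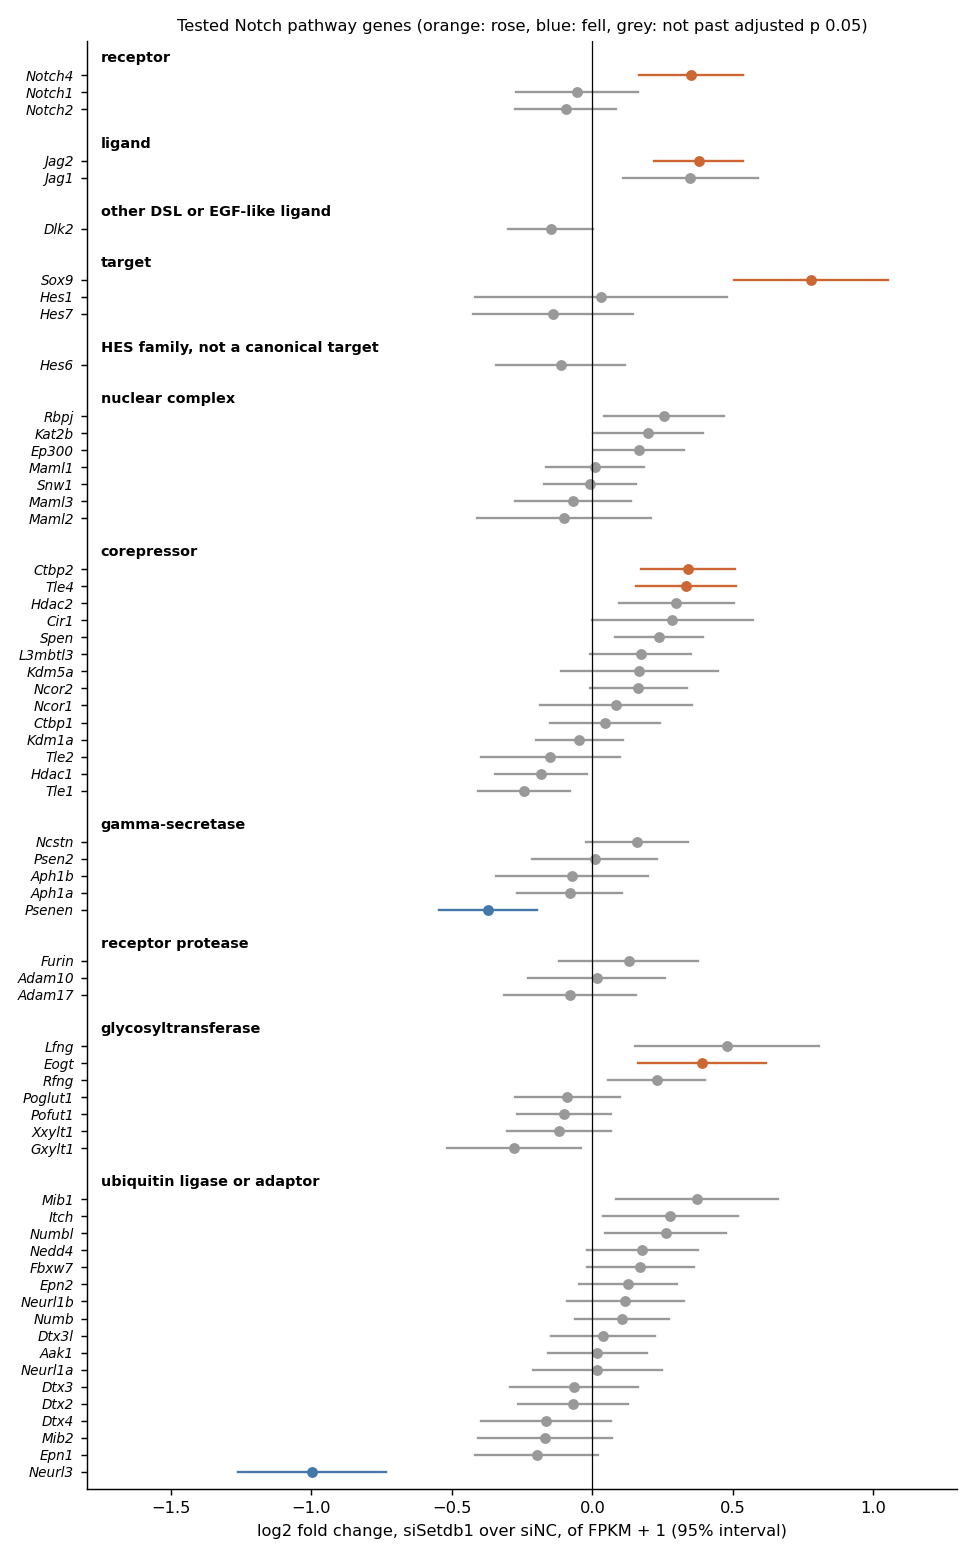
Difference in log2(FPKM + 1), siSetdb1 minus siNC (x axis), for 63 of the 64 tested pathway genes (1 is not drawn), the 6 tested members among them, with 95% intervals and grouped by role. Genes that rose are orange (Sox9 at 0.78, Eogt, Jag2, Notch4, Ctbp2 and Tle4), genes that fell are blue (Neurl3 at -0.998 and Psenen), and the rest are grey.

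The rise of Notch4 was set beside markers of cells that are known to express it. Of 9 endothelial markers, 7 were under 0.5 FPKM in every library, among them Pecam1, Cdh5, Kdr and Tie1. The summed level of the 9 was 2.05 to 2.42 FPKM in siNC and 2.10 to 2.35 FPKM in siSetdb1, most of it from Flt1 and Eng, which did not pass. Cdh5, the cadherin gene of endothelial junctions, was higher in each siSetdb1 library, as Notch4 was. It had 7, 8 and 14 reads against 5, 2 and 3 in the controls. Tek, another of the endothelial markers, went the other way, at 0 reads in each siSetdb1 library against 3, 1 and 1 in siNC. Both had too few reads to be tested. Of 7 mural and stellate markers in the table, 6 were under 0.5 FPKM in every library, with a sum of 0.716 to 0.721 FPKM in siNC and 0.847 to 1.22 FPKM in siSetdb1. The seventh, the muscle filament gene Des, did not pass, but was also higher in each siSetdb1 library. It had 0.450 to 0.492 FPKM in siNC and 0.601 to 0.986 FPKM in siSetdb1, and reached 0.5 FPKM only in siSetdb1. Among the 6 low markers, Col1a1 was higher in each siSetdb1 library, at 27, 25 and 27 reads against 15, 16 and 19. Acta2 was lower in each, at 0 reads against 2, 2 and 3. Pdgfrb, Rgs5 and Cspg4 had reads in siNC alone, at most 3 in a library. Blood and macrophage markers summed to 4.34 to 6.73 FPKM in siNC and 2.41 to 3.22 FPKM in siSetdb1, most of it from Cd68. That gene was the only marker of its list tested, and it fell (log2 -0.84, limma adjusted p = 0.0120). The pan-leukocyte gene Ptprc had 1 to 3 reads in a library. Of 8 biliary and progenitor markers in the table, 2 rose (Krt7 and Sox9), 1 fell (Spp1) and 2 of the 5 tested did not pass. Of 9 tested hepatocyte markers, 1 rose (Krt18) and 2 fell (Ttr and Cebpa). Over all 12846 genes tested, 15.1% passed, and with so few markers in each list these counts describe the markers alone. Cebpa entered the test only through siNC, the group where it was higher (0.700 to 0.729 FPKM, against 0.176 to 0.447 FPKM in siSetdb1), so its call depends on that filter. The part of these markers, Cdh5 and Des included, in the changes of Notch4 and Jag2 was not tested.

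By Pearson's correlation of log2(FPKM + 1) over the 6 libraries, the tested genes closest to Notch4 were Lamb3, a laminin chain gene (r = 0.998), Wnt7b, a Wnt ligand gene (r = 0.997), and Smurf1, a ubiquitin ligase gene (r = 0.997). Lamb3 had 93.5, 80.2 and 79.3 FPKM in siNC and 127, 122 and 129 FPKM in siSetdb1, with siNC replicate 1 the highest control as for Notch4. Those closest to Jag2 were Clint1, which encodes a clathrin adaptor (r = 0.998), the predicted gene Gm20288 (r = 0.996) and Fgfbp1, a carrier of fibroblast growth factors (r = 0.996). Gm20288 was listed at 0 in the 3 siNC libraries and had 0.965, 0.651 and 0.934 FPKM in siSetdb1. It entered the test only through siSetdb1, the group where it was higher, so its place among these genes depends on that filter. The correlations given are the highest among all tested genes, over 6 points in 2 groups from the same libraries, and serve as a description.

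**Figure D4:**
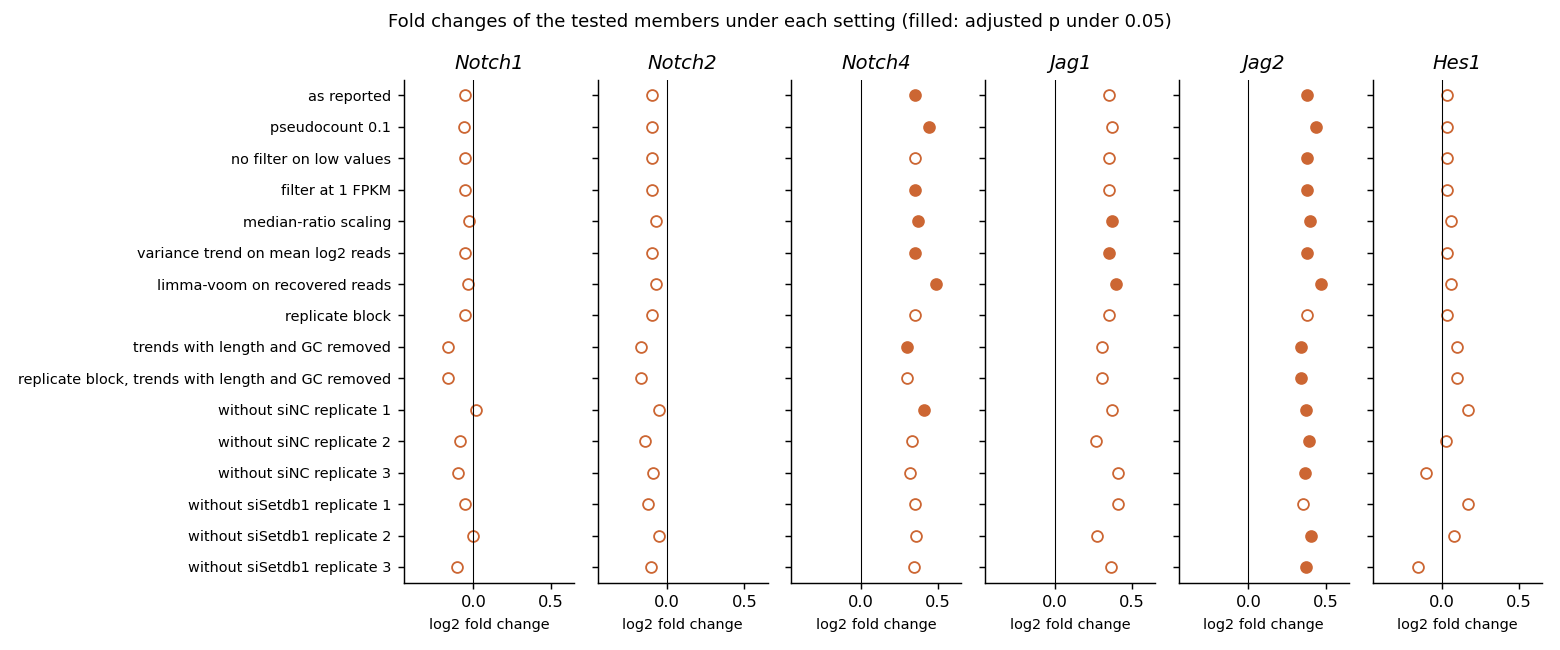
Log2 fold change (x axis) of the 6 tested members under the reported analysis and 15 other settings (y axis), filled where the adjusted p was under 0.05. Jag2 and Notch4 stay above 0 throughout and are filled in 14 and 8 of the 16 settings, Jag1 is above 0 throughout and filled in 3, and Notch1, Notch2 and Hes1 are filled in none.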

How the data were processed

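RNA of 6 AML12 samples was sequenced with single-end reads of 50 bases, per the labels' protocols. Build mm10 and the tools DESeq2 1.4.5, RSEM 1.2.12, HISAT2 2.0.4 and Bowtie2 2.2.5 are named, per the submitters' processing notes, with no role for any. The deposited table names no unit. Its values are FPKM made by the authors: with GENCODE M21 exon lengths they are whole reads (tolerance 0.01) for 98.6% of genes. FPKM depends on gene length and on each sample's total.

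Groups were taken from sample titles. Genes reaching 0.5 FPKM in 3 of the 6 libraries entered limma 3.58.1 (R 4.3.3; trended, robust variance) as log2(FPKM + 1), two-sided, with Benjamini-Hochberg adjustment over all genes and a threshold of 0.05. Tested on simulated reads, the script gave more false calls than the threshold allows and missed most of the smallest changes. Alternatives changed the pseudocount, filter, scaling, variance trend, test, trends with length and GC content, replicate block and libraries. All members were named, with pathway genes that passed, Rbpj, Adam10, Lfng, Sox9 and Nrarp, and the 3 genes most correlated with each member that passed. Dll3, Dlk2, Tle1, Tle3, Hes3, Hes6, Hes7, Ep300, Kat2b, the Maml genes and the markers named were added after their values were seen. Members and lists were chosen with earlier results of these data known. Dlk1, Hes2, Hes5, Hey2, Heyl and the markers Epcam, Lrat and Adgre1 were not analysed here, and 1 gene that the naming rule lists is not reported here.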

Additional observations from a re-analysis of the deposited data

How the results depend on the processing

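The number of genes passing over all genes tested was 1945 as reported, 2166 with limma-voom on recovered reads, 890 with no filter on low values, 1015 with the replicate block and 683 to 2176 when each library was left out in turn. The number of members passing was 1 with no filter, 0 with the replicate block, 1 with the block and trends with length and GC content removed, and 0 to 2 when each library was left out, against 2 as reported. The number of other pathway genes passing was 2 with no filter, 10 with the variance trend on reads, 12 with limma-voom on recovered reads, 2 with the replicate block, 11 with trends with length and GC content removed and 2 to 10 when each library was left out, against 6 as reported. With the block, Jag2 and Notch4 kept log2 fold changes of 0.38 and 0.35 with adjusted p = 0.0503 and 0.0716 (limma). Same-numbered libraries did not deviate together (correlations of -0.157, 0.167 and -0.172), so the numbers were not taken as pairs. When each library was left out, Notch1 ranged from -0.11 to 0.017 (0.017 without siNC replicate 1), Hes1 from -0.15 to 0.17 (-0.10 and -0.15 without siNC or siSetdb1 replicate 3) and Adam10 from -0.10 to 0.088 (-0.10 without siNC replicate 1). Adam10 was also -0.10 with the trends removed, with or without the block. None of these 3 genes passed under any setting. The cause of these differences was not tested. Depth limits Notch3, Dll1, Dll4 and Hey1, which had at most 28 reads in a library.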
